A study of Caenorhabditis elegans with 2 samples.

Results

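The histone genes of the nematode Caenorhabditis elegans were examined for binding of the T-box transcription factor TBX-11 in early embryos. Members were the protein-coding genes whose name starts with his- in the Ensembl release 115 annotation of assembly WBcel235 (ce11), which gave 72 genes among 19973 nuclear protein-coding genes. Binding was mapped by ChIP-seq, in which chromatin is sheared, pulled down with an antibody and sequenced, in 2 biological replicates of a single group. There is therefore no contrast between conditions, and the histone genes are set beside all protein-coding genes and all peaks. Both replicates were whole early embryos of strain OP368, labelled 1 hour old and obtained by egg bleaching. The strain carries wgIs368, a transgene on a trimmed fosmid with tbx-11 joined to TY1, EGFP and 3xFLAG tags and with unc-119(+), in an unc-119(tm4063) mutant background. The tagged gene is an additional copy, and the labels name no change at the resident tbx-11 locus. According to the sample description the pull-down used an antibody to GFP, whereas the antibody label reads tbx-11. In whole embryos, strong binding in few cells and weak binding in many cells cannot be told apart.

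Histones H2A, H2B, H3 and H4 form the protein core around which DNA is wound in the nucleosome. The linker histone H1 binds between cores, and the variant H3.3 replaces H3 outside DNA replication. Core histone genes are transcribed in bulk during S phase, and in C. elegans most lie in clusters of divergent pairs, in which a gene for H2A faces away from a gene for H2B, or a gene for H3 from a gene for H4, with a shared promoter region between their starts. T-box proteins recognise the core sequence GGTGTG, which reads CACACC on the opposite strand.

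The stretches between the starts of 6 divergent pairs are shown, from which 40 bp next to each start were left out. The first 4 come from H3/H4 pairs that had a thresholded TBX-11 peak and hold GGTGTG on either strand, which is in capitals. The fifth, his-31/his-32, is the H3/H4 pair with a peak but without the site, and the sixth is an H2A/H2B pair, which lacks it as well. All are from the RefSeq genome of WBcel235 and are written from the H3 or H2A side. Their positions are chrV:8898033-8898187 on the plus strand for his-17/his-18, chrV:8535018-8535173 plus for his-6/his-5, chrV:16042324-16042479 plus for his-2/his-1, chrIV:7488033-7488208 minus for his-60/his-59, chrIV:8334024-8334264 minus for his-31/his-32 and chrV:8533127-8533338 minus for his-8/his-7.
his-17/his-18 H3/H4: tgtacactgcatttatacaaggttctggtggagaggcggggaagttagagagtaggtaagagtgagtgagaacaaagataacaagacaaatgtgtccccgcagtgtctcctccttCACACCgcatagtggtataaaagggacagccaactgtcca
his-6/his-5 H3/H4: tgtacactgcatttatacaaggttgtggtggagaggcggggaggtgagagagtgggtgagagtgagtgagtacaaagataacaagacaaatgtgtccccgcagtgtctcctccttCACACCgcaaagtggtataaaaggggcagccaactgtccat
his-2/his-1 H3/H4: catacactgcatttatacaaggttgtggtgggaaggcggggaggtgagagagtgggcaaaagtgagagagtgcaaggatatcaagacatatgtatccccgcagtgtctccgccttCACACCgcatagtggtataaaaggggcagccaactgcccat
his-60/his-59 H3/H4: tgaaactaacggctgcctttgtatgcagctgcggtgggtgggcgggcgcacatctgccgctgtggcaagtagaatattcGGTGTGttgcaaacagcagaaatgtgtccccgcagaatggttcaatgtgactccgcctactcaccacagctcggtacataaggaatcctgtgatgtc
his-31/his-32 H3/H4: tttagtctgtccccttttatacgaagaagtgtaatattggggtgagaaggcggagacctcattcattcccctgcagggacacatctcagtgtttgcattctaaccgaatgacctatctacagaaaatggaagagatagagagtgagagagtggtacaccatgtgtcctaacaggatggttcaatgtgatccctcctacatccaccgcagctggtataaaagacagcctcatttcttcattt
his-8/his-7 H2A/H2B: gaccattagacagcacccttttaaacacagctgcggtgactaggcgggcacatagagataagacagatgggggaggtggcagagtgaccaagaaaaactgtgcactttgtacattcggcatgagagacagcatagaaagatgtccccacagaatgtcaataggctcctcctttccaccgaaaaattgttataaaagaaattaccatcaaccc

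The chromosome V H3/H4 pairs resemble each other closely. Between their starts, his-6/his-5 and his-17/his-18 were 94.9% identical, and his-2/his-1 and his-6/his-5 were 90.3% identical. The 155 bases printed for his-17/his-18 also occur whole between the starts of his-50/his-49 and of his-28/his-27, a pair of loci for which no list held any candidate peak. Of the 31 divergent pairs, 17 had no position between the starts at which the surrounding 50 bases occur only once in the genome.

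Peaks were read from the authors' lists as summits, the position of highest signal within a peak. A gene was counted when a summit lay from 1000 bp upstream to 500 bp downstream of its annotated start. The deposited signal measures the strength of a peak in units of the authors that are not explained further. The score, up to 1000, expresses how reproducibly a peak ranked in a pair of analyses. The lists that had passed the authors' threshold are called thresholded, and the much longer lists of all ranked candidates are called ranked. The conservative thresholded list of both replicates, with 882 peaks, is the main list, and a second pooled list held 1042 peaks. Replicate values given beside a peak are the signals of the strongest ranked candidate overlapping it. The replicate lists held 546 nuclear peaks in replicate 1 and 467 in replicate 2. The lists give no read counts, so depth is unknown, and both replicates were set against the same control alignments.

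In the main list 18 of 72 his genes (25.0%, Clopper-Pearson 95% interval 15.5 to 36.6) had a promoter summit, beside 489 of 19973 protein-coding genes (2.45%). The second pooled list gave 21 his genes (29.2%) beside 2.75% of all protein-coding genes. Replicate 1 alone gave 17 (23.6%) beside 1.53%, and replicate 2 alone gave 9 (12.5%) beside 1.21%. Every thresholded list therefore held a larger share of his genes than of protein-coding genes at large, and replicate 2 alone gave the fewest his genes. Neighbours share summits, so the genes of a list are not independent, and the 18 genes rested on 12 peaks. The interval covers counting error only.

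In the ranked lists most promoters hold a candidate, and the his genes stood closer to the rest. Of the his genes, 52 (72.2%) had a candidate in the conservative ranked list beside 67.9% of all protein-coding genes, and 54 (75.0%) in the other pooled ranked list beside 74.3%. In the ranked list of replicate 1 the share was 45 his genes (62.5%) beside 51.9%, and in that of replicate 2 it was 44 (61.1%) beside 51.7%. The strongest candidate per gene had a median signal of 56.9 over the his genes that had one, and of 31.7 over all protein-coding genes that had one, in the conservative ranked list. Accounting for all 72 members, 18 had a summit in the main list, 6 more in another thresholded list only, 31 had ranked candidates alone, and 17 had no candidate in any of the 8 lists.

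**Figure D1:**
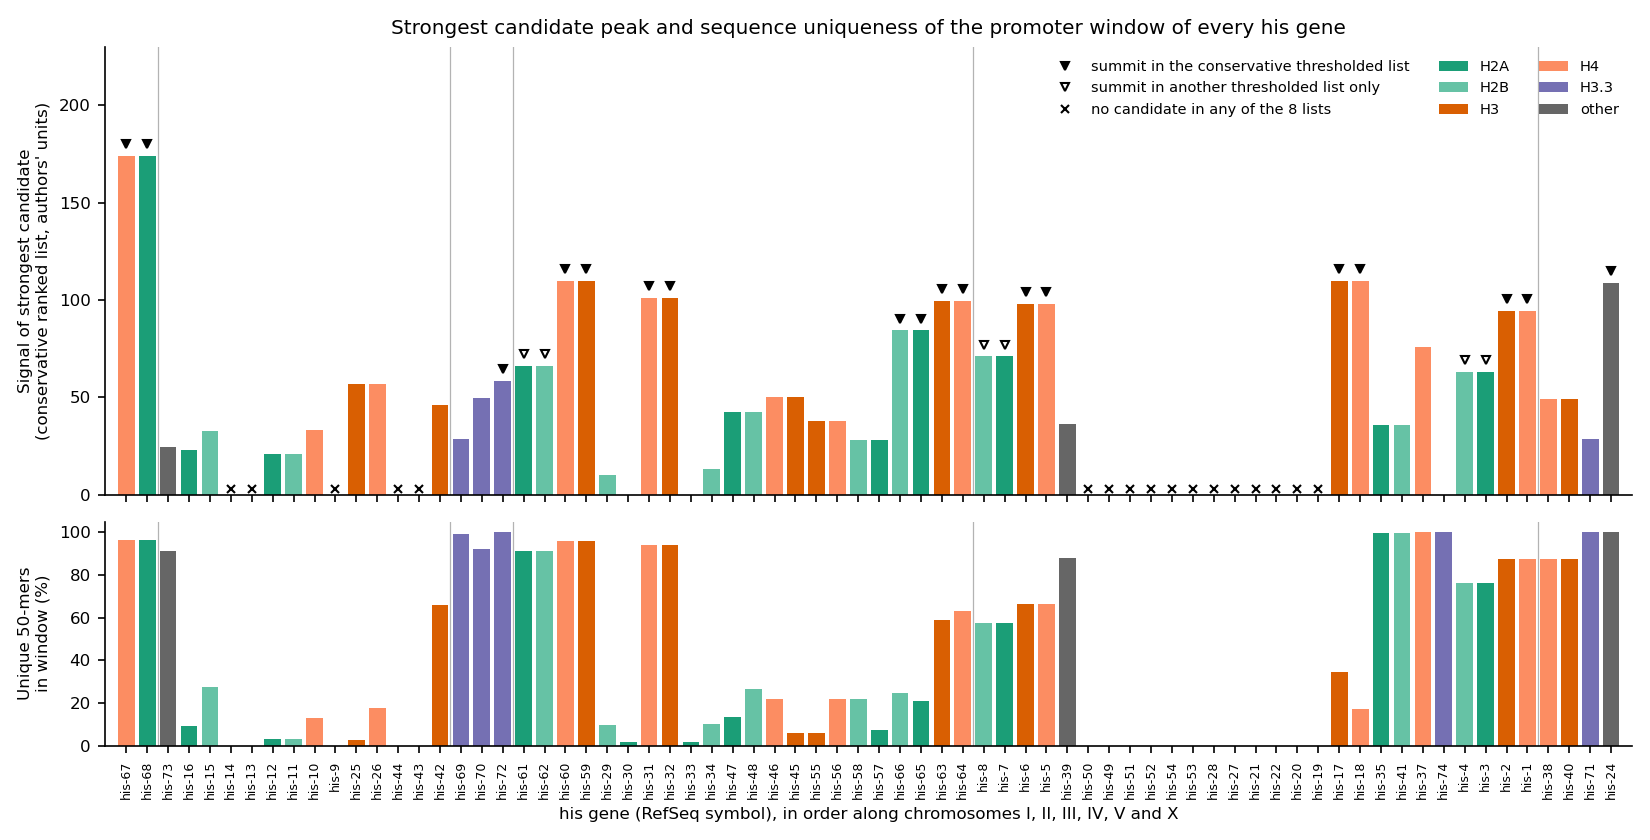
The upper panel plots the signal (authors' units) of the strongest candidate in the promoter window of each of the 72 his genes, in chromosome order and coloured by histone class, and the lower panel plots the share of the window (%) whose 50-mers occur once in the genome. Filled triangles mark summits in the main list, open triangles summits in another thresholded list only, and crosses the 17 genes with no candidate in any of the 8 lists, all of which have 0% unique 50-mers.

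The strongest histone peak lay between the starts of his-67, which encodes H4, and his-68, which encodes H2A, on chromosome I. Its pooled signal was 174, with 91.05 in replicate 1 and 65.4 in replicate 2, and it ranked 202 of 882. The peak ran from 9988801 to 9989130, with its summit 203 bp upstream of his-67 and 166 bp upstream of his-68. It is the only pair of an H4 with an H2A gene among the 31, and it lies outside the clusters. The window of the neighbouring gene alg-5, an Argonaute family member, also held this summit, 836 bp upstream of its start.

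Of the H3/H4 pairs, 6 of 14 had a main-list peak. At his-60/his-59 on chromosome IV there were 2 of them. The first, inside the H4 gene his-60 and 155 bp downstream of its start, had a signal of 110, with 79.9 in replicate 1 and 39.4 in replicate 2. The other, inside the H3 gene his-59 and 297 bp downstream of its start, had a signal of 75.8, with 48.0 in replicate 1 and 58.5 in replicate 2. The replicates thus differed in which of the pair of summits was the higher, and each replicate's thresholded list held only its own higher one. The second pooled list held only the peak of 75.8, and the other pooled ranked list gave the peak of 110 a score of 81. At his-17/his-18 the summit lay 8 bp inside the H4 gene his-18, with a signal of 110 and with 71.5 and 37.1 in replicates 1 and 2. Only 13.9% of that peak's positions were unique as 50-mers, the lowest of the 12 peaks, and the window of frpr-13, a gene of the FMRFamide peptide receptor family, also held the summit, 820 bp upstream of its start.

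The peak at his-31/his-32 lay 272 bp inside the H3 gene his-32, with a signal of 101. Replicate 1 listed 60.7 and replicate 2 listed 41.5 there, at scores of 31 and 23. Its score was 118 in the other pooled ranked list against 1000 in the main list, which alone of the 4 thresholded lists held it. At his-63/his-64 the signal was 99.7, with 64.9 in replicate 1 at 44 bp and 28.4 in replicate 2 at 243 bp downstream of the H4 start. Both replicates called a peak there, but at summits that stand apart within the H4 gene his-64. At his-6/his-5 the summit lay between the starts, 132 bp upstream of the H3 gene his-6 and 105 bp upstream of the H4 gene his-5, with a signal of 98.01. Its value was 73.7 in replicate 1 and 30.7 in replicate 2, and only replicate 1 kept it past the threshold. At his-2/his-1 the summit lay 190 bp inside the H4 gene his-1, with a signal of 94.4, with 64.97 in replicate 1 and 40.3 in replicate 2. A second peak with a signal of 6.69 overlapped it by 125 bp, its summit 205 bp further on and beyond the 3′ end of his-1.

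Among the 16 H2A/H2B pairs only his-66/his-65 had a main-list peak, with a signal of 84.5, 57.4 in replicate 1 and 28.7 in replicate 2. The replicate scores were 866 and 20, and of the replicates only replicate 1 kept it past the threshold. Of this peak's positions, 48.2% were unique as 50-mers. Its summit lay 448 bp downstream of the start of the H2B gene his-66, in intergenic sequence past the end of the gene, and 754 bp upstream of the H2A gene his-65. The stretch between the starts of this pair is identical to that of his-47/his-48 and has no unique 50-mer. The second pooled list added 3 more H2A/H2B pairs. It lacked 3 of the 12 main-list histone peaks, those inside his-60, his-32 and his-72, and its 21 his genes were 15 of the 18 of the main list and 6 others. At his-8/his-7 a summit between the starts had a signal of 71.1, with 31.2 in replicate 1 and 50.01 in replicate 2. A summit 41 bp inside the H2A gene his-61 of his-61/his-62 had a signal of 66.3, with 50.3 in replicate 1 and 25.9 in replicate 2. At his-4/his-3 there were summits with signals of 37.4, inside the H2B gene his-4, and 17.2, between the starts, both within 100 bp of the non-coding RNA gene T10C6.19. Neither replicate kept them past the threshold. The first had 28.6 in replicate 1 and 27.6 in replicate 2, at scores of 24 and 69. The other had 9.65 and 18.7, at scores of 249 and 21. The strongest ranked candidate of his-4/his-3, with a signal of 63.1, was in no thresholded list. In these pairs the replicates differed in direction, replicate 2 being the higher at his-8/his-7 and replicate 1 at his-61/his-62.

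**Figure D2:**
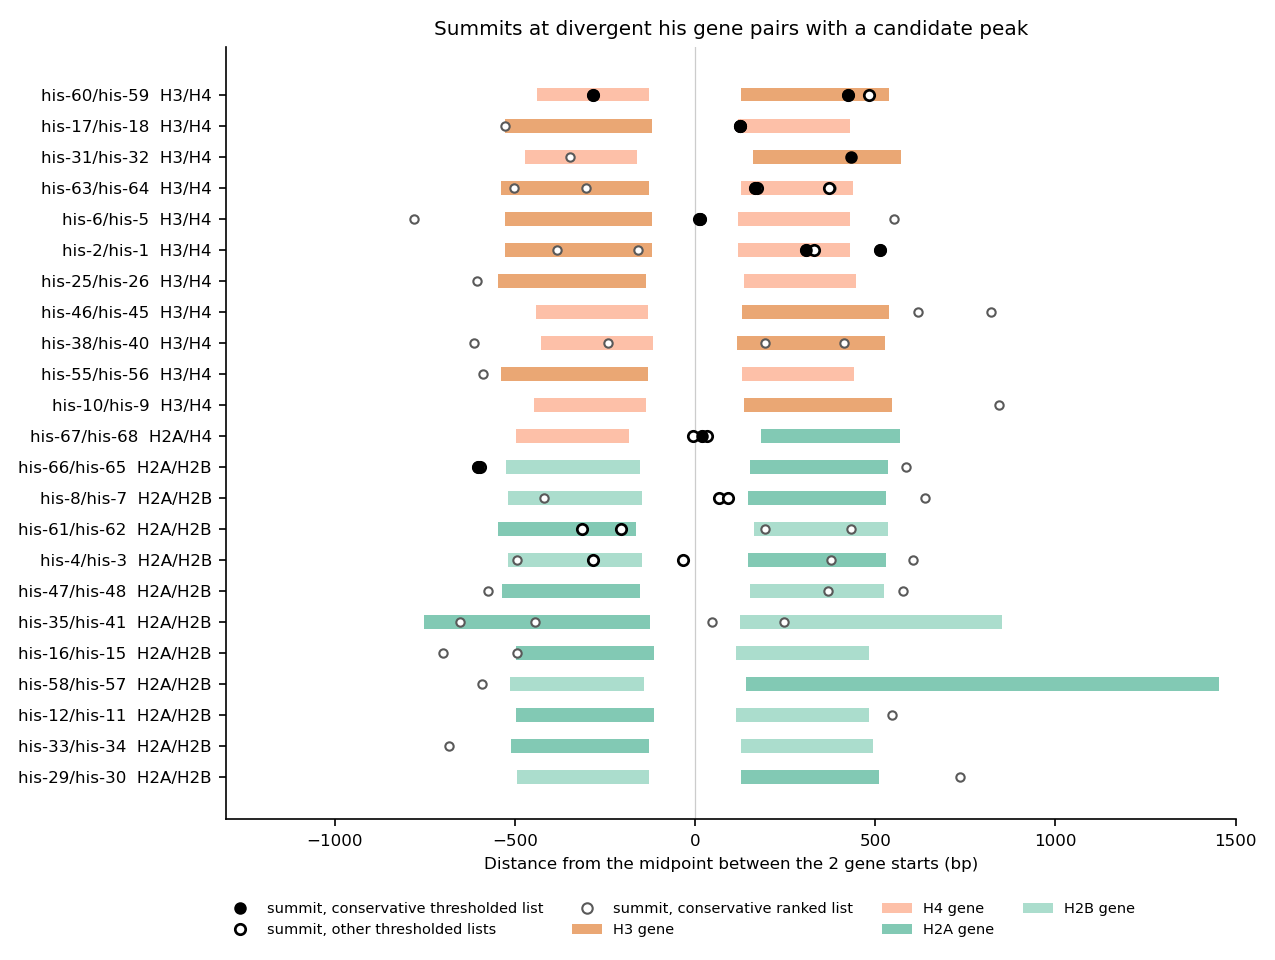
Summits at the 23 divergent his gene pairs that have a candidate peak, by distance (bp) from the midpoint between the 2 gene starts, with gene bodies as bars coloured by histone class. Filled points are summits of the main list, thick open points those of other thresholded lists and thin open points those of the conservative ranked list, and 2 of the filled points, at his-67/his-68 and his-6/his-5, lie between the starts.

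By histone class, 7 of 16 H4 genes and 6 of 15 H3 genes had a main-list summit, compared with 2 of 17 H2A genes and 1 of 16 H2B genes. Counting any thresholded list, the numbers were 7 H4, 6 H3, 5 H2A and 4 H2B genes. Over genes with a candidate, the strongest one in the conservative ranked list had a median signal of 94.4 for H4, 94.4 for H3, 52.9 for H2A and 35.9 for H2B. Since the members of a pair share summits, the same pattern is better counted by pair. The H3/H4 pairs had a main-list peak in 6 of 14 cases and a candidate in 11, with a median strongest signal of 94.4. The H2A/H2B pairs had a main-list peak in 1 of 16 cases and a candidate in 11, with a median strongest signal of 35.9. Where at least 50% of the windows' 50-mers were unique, a main-list peak was present at 5 of 6 H3/H4 pairs and 0 of 4 H2A/H2B pairs. In the second pooled list the same pairs had a peak in 4 of 6 H3/H4 and 3 of 4 H2A/H2B cases. In the thresholded list of replicate 1 the cases were 4 of 6 and 1 of 4, and in that of replicate 2 they were 2 of 6 and 1 of 4. The H3/H4 share was thus the smaller in the second pooled list and the larger in the other thresholded lists. Over all pairs the second pooled list held a peak at 5 of 14 H3/H4 and 4 of 16 H2A/H2B pairs. These counts are a description, because pairs copied from each other are not independent, and the difference between the kinds was not tested.

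The variants and the linker histone lie outside the pairs. The gene his-24, which encodes a linker histone H1, had a summit 51 bp downstream of its start on chromosome X, where its coding sequence begins. Its pooled signal was 109, with 63.8 in replicate 1 and 47.1 in replicate 2, and it was one of 7 his genes with a summit in all 4 thresholded lists, the others being his-67, his-68, his-60, his-59, his-63 and his-64. At his-60 and his-59 the lists of replicate 1 and replicate 2 held different peaks, so no single peak was in all 4. The his-24 summit lay within 100 bp of the non-coding RNA gene M163.19. Of the 5 H3.3 genes, his-72 had a summit in its first intron, 306 bp from the start on chromosome III. The signal there was 58.4, with 41.8 in replicate 1 and 37.1 in replicate 2, at replicate scores of 25 and 18. Its score was 111 in the other pooled ranked list against 962 in the main list, the only thresholded list to hold it. The other H3.3 genes had candidates only. In the conservative ranked list these had signals of 49.7 at his-70, 28.5 at his-71 and 28.4 at his-69, and his-74 had none there and 16.02 in replicate 2. The remaining single genes had ranked candidates alone as well, with signals of 76.1 at the H4 gene his-37, 46.2 at his-42, an H3 gene, and 36.5 at his-39 and 24.4 at his-73, whose products are annotated only as histone domain proteins. The windows of all 5 H3.3 genes were at least 92.3% unique.

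Of the 72 genes, 61 lay in 10 clusters, taken as 3 or more his genes with neighbouring starts at most 20000 bp apart. In clusters 14 of 61 genes had a main-list summit, on 9 peaks, and outside clusters 4 of 11 did, on 3 peaks. The windows had a median of 16.99% unique 50-mers in clusters and 96.5% outside. The clusters differed widely. On chromosome IV all 4 genes from 11400415 to 11407427 had one, as did 2 of 4 from 7485834 to 7488659 and 2 of 6 from 8331044 to 8336340. A larger chromosome IV cluster, 8 genes from 11324056 to 11341703, had candidates at every gene but a thresholded summit at none. On chromosome V a main-list summit lay at 2 of 5 genes from 8532715 to 8536716, 2 of 8 from 8889488 to 8898539, 2 of 4 from 16040144 to 16042831 and 0 of 3 from 9544659 to 9547607. The chromosome II cluster, 13 genes from 13817760 to 13828697, had none in the thresholded lists and candidates at 8 genes. The chromosome V cluster of 6 genes from 8847393 to 8854053 had no candidate in any list, and its windows had 0% unique 50-mers. The median was 3.33% in the chromosome II cluster and 17.6% in the chromosome IV cluster without a thresholded summit. Clusters with a main-list summit had medians from 0% to 93.6%. The chromosome V cluster from 9544659 to 9547607, with none, had a median of 99.9%.

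The positions of the summits were set beside those of other promoter peaks, with no test. Of the 12 main-list histone peaks, 2 lay between the starts of a pair, 8 inside a his gene and 2 elsewhere. Their summits lay in annotated coding sequence in 7 of 12 cases (58.3%), beside 13 of 372 other promoter peaks (3.49%) and 50 of all 882 peaks (5.67%). A summit downstream of the nearest protein-coding start was found for 10 of 12 histone peaks (83.3%), compared with 59 of 372 other promoter peaks (15.9%). The median position over the 12 was 172.5 bp downstream, and over the other promoter peaks it was 197 bp upstream. In the second pooled list 4 of 13 histone summits lay between the starts of a pair, 7 inside a his gene and 2 elsewhere. His genes are short, 64 of the 72 spanning under 500 bp, and 65 of the 72 annotated starts are the start codon itself, so the true transcription start lies an unknown distance upstream. The nearest protein-coding start belonged to a his gene for all 12 peaks. In signal the histone peaks were near the middle of the list, with a median of 98.9 (range 6.69 to 174) compared with 103 over all 882 peaks, and 4 of the 12 lay above that median.

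Many histone genes are near-identical copies, and a read from inside a copy cannot be placed at one locus. The share of each window whose 50-mers occur once in the genome had a median of 23.3% over the his genes and 100% over all protein-coding genes. It was under 50% for 40 of 72 his genes (55.6%) and for 2.25% of all protein-coding genes. Members with a main-list summit had a median of 87.7%, those without had 9.89%, and all 17 members with no candidate in any list were at 0%. The read length and the treatment of reads with several placements are not given in the sources used here, so a window of copies without a candidate gives no measurement of binding.

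Split by this share, 0 of 28 his genes under 10% unique had a main-list summit, beside 0 of 238 protein-coding genes in the same band. Between 10 and 90% unique, 10 of 26 his genes had one (38.5%), beside 58 of 1882 protein-coding genes (3.08%). At 90% or more, 8 of 18 his genes had one (44.4%), beside 431 of 17853 (2.41%). The share of his genes was thus larger than that of protein-coding genes in both bands where any gene had a summit. Ranked candidates followed the same split, with 9 of 28, 26 of 26 and 17 of 18 his genes having one, beside 5.46%, 65.04% and 68.98% of protein-coding genes. With 36-mers in place of 50-mers, the upper 2 bands gave 42.4% and 36.4% of his genes, beside 3.32% and 2.36% of protein-coding genes. By pair, the 10 pairs with at least 90% unique positions between the starts all had a candidate, 6 had a main-list peak and 4 had a candidate between the starts. None of the 17 pairs without a unique position there had a candidate between the starts, although 9 had one elsewhere in the windows.

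**Figure D3:**
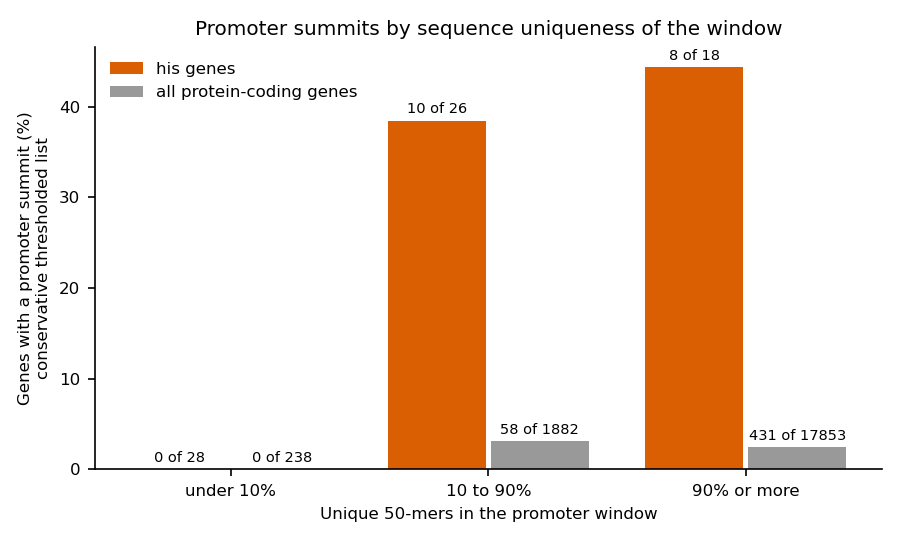
Share of genes (%) with a promoter summit in the main list, for his genes and for all protein-coding genes, by the share of the promoter window whose 50-mers occur once in the genome. Numbers above the bars are genes with a summit of genes in the band; under 10% unique neither set has one, and at 90% or more 8 of 18 his genes and 431 of 17853 protein-coding genes do.

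The T-box core GGTGTG divided the pairs by kind. On either strand it occurred between the starts of 13 of 14 H3/H4 pairs, all but his-31/his-32, of 1 of 16 H2A/H2B pairs, his-35/his-41, and not at his-67/his-68. These counts come from 11 distinct H3/H4 and 9 distinct H2A/H2B sequences, and near-copies count separately among them. In the 258 bases before the start, the median length between the starts of a pair, 1334 of 19973 protein-coding genes (6.68%) held it, with no matching for base composition. The site stood in a fixed place, starting at base 155 or 156 from the H3 start in the chromosome V pairs and at his-38/his-40, and at base 118 to 122 in the pairs of chromosomes II and IV. These are the capitals in the printed stretches.

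The site was present both at pairs with a main-list peak and at pairs with none, 5 of the 13 having one. Of the 8 with none, 5 had no unique position between the starts and 2 more had windows under 50% unique. Among the 5 site-bearing H3/H4 pairs with windows at least 50% unique, 4 had a main-list peak, all but his-38/his-40. The site-bearing H2A/H2B pair his-35/his-41, with windows 99.9% unique, had no thresholded peak. Of the pairs without the site and with windows at least 50% unique, his-67/his-68 and his-31/his-32 had a main-list peak. The others, his-61/his-62, his-8/his-7 and his-4/his-3, had a peak in another thresholded list only. Whether site and peak go together was not tested. The strongest histone peak, at his-67/his-68, had no site between the starts. From the summit to the site the distance was 27 to 473 bp, with a median of 268 bp over the 7 peaks at H3/H4 pairs with the site. It lay within 100 bp of the summit for 2 of 12 histone peaks, those of his-17/his-18 and his-6/his-5, and for 85 of all 882 peaks (9.64%). Other words sought on both strands within 100 bp of the summit were TATAAA, at 3 of 12 histone peaks and 11.9% of all peaks, CCAAT at 2 and 27.7%, GGGCGG at 1 and 12.6%, CTGCGTC at 1 and 5.1%, and TTTGCAT at 0 and 6.01%. Between the starts, TATAAA occurred in 24 of the 31 pairs, CCAAT in 17, GGGCGG in 10, TTTGCAT in 2 and CTGCGTC in 1. No share over all genes was counted for these words in stretches of that length. In the whole promoter windows, GGTGTG occurred for 51.4% of his genes and 29.7% of all protein-coding genes. TATAAA occurred there for 94.4% and 85.7%, and CCAAT for 100% and 96.2%. The shares there were 56.9% and 22.04% for GGGCGG, 29.2% and 38.02% for TTTGCAT, and 4.17% and 13.2% for CTGCGTC. A match is a description of the letters only.

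The replicates were compared over 41 units, the 31 pairs and 10 single genes, so that a shared peak counts once. A candidate was listed in both replicates for 23 units, in replicate 1 only for 4, in replicate 2 only for 5 and in neither for 9. Over the 23, the strongest signals had a Spearman correlation of 0.723 and, on the log2 scale, a Pearson correlation of 0.692, given as a description, since copies and control alignments are shared. Each value is the strongest candidate anywhere in a unit's windows. The values of the replicates can therefore come from different summits. They did at his-60/his-59, his-63/his-64, his-58/his-57, his-47/his-48, his-38/his-40 and his-39, among others. The correlations are therefore not a measure of agreement at the same peaks. Replicate 1 was the higher in 19 of the 23 units, and in 70.2% of the 6896 protein-coding genes with a candidate in both replicates. Of the 12 main-list histone peaks, 9 overlapped a peak in the replicate 1 list, 4 in the replicate 2 list, 3 in both (25.0%) and 2 in neither. Over all 882 peaks 345 (39.1%) overlapped one in both. The 3 histone peaks in both were those of his-67/his-68, his-24 and his-63/his-64.

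**Figure D4:**
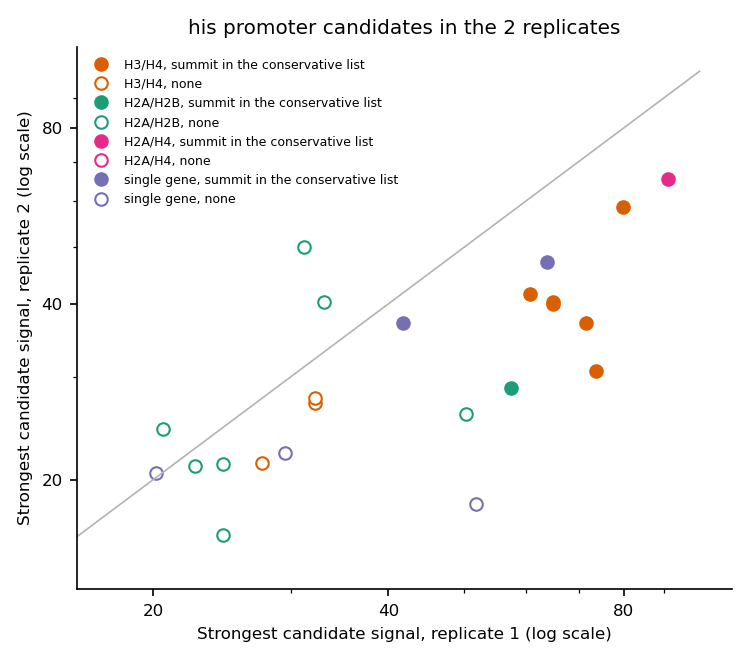
Strongest candidate signal (authors' units, log scales) in replicate 1 and replicate 2 for the 23 divergent pairs or single his genes with a candidate in both replicates; the grey line marks equal values. Filled points have a summit in the main list; 19 of the 23 units lie below the line, with his-67/his-68 at 91.05 and 65.4 at the upper end.

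Of the members that passed no threshold, the strongest ranked candidate was that of the H4 gene his-37, a single gene beside his-35/his-41 on chromosome V. Its signal of 76.1, 68 bp upstream of the start in a window that is 100% unique, came with a score of 211, compared with 589 in the other pooled ranked list and 658 in that of replicate 1. Replicate 1 listed 51.8 and replicate 2 listed 18.2. The pair his-25/his-26 had a candidate with a signal of 56.9 and a score of 522, and his-46/his-45 one with 50.2 and a score of 106. These summits lay 468 bp downstream of the start of his-25 and 490 bp downstream of the start of his-45, both H3 genes. Both lay past the end of the gene, and the windows of his-25 and his-45 were only 2.47% and 5.86% unique. The lowest score in any thresholded list was 830. The conservative ranked list had 120 candidates past that score that the thresholded list lacks, and 0 of them lay at a his promoter.

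Genes of the same pathway were looked up from a pair of lists. Of 14 genes for histone supply and chaperones, such as the stem-loop binding protein gene cdl-1 and the chromatin assembly factor genes, 1 had a main-list summit, beside 2.45% of all protein-coding genes. It was unc-85, which encodes an Asf1 family histone chaperone, with a pooled signal of 124, with 68.9 in replicate 1 and 63.6 in replicate 2, and it was in all 4 thresholded lists. Of 11 genes for linker histones and variants with other names, 0 had a main-list summit and 2 had one in the second pooled list, beside 2.75% of all protein-coding genes. These were the linker histone genes hil-3, with a signal of 83.3, and hil-2, with 70.2. The H2A.Z gene htz-1 and the centromeric H3 gene hcp-3 had ranked candidates only, with signals of 69.1 and 61.7. Of the 25 genes together, 22 had a candidate in the conservative ranked list, with a median signal of 42.1, beside 67.9% of all protein-coding genes and their median of 31.7.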

How the data were processed

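TBX-11 binding was measured by ChIP-seq in 2 biological replicates of 1 group. The authors deposited 4 thresholded and 4 ranked peak lists on assembly ce11, 2 pooled and 1 per replicate of each. Per the deposited file descriptions, all derive from the replicates' alignments and a shared set of control alignments, and the thresholded ones also from 1 input of unstated nature. The aligner, peak caller and read filters remain not given in the sources used here. Signal, as deposited, is the authors' unexplained unit of peak strength, and the deposited score is a reproducibility score up to 1000. The summit is the peak start plus the deposited offset. Left out were 16 columns of the pooled ranked lists that come from unnamed sub-analyses. Without counts in the lists the depth is unknown, and peaks of a mock pull-down were not analysed here.

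Genes came from the Ensembl release 115 annotation of the same assembly. Symbols and products came from RefSeq, matched for 72 of 72 members, since 36 members share their Ensembl name and 50 names are distinct. Histone classes were taken from the products. The main share carries a Clopper-Pearson 95% interval, and no test was made, because there is no contrast and members share peaks. Divergent pairs had starts at most 2000 bp apart. Uniqueness counted positions whose centred 50-mer (or 36-mer) occurs once on either strand of the genome. Assignment of summits and uniqueness were tested on simulated data. Python 3.11.15, pandas 2.3.3, numpy 2.4.6, scipy 1.17.1, biopython 1.88 and matplotlib 3.10.9 were used. Alternatives were the second pooled list, each replicate, subsets of peaks, and other windows and assignments.

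The members, lists, motifs and alternatives were chosen with earlier results of these data known. Genes were named if they had a thresholded summit, along with the linker and H3.3 genes, genes sharing a summit, related genes with a thresholded summit and the 5 strongest members without one. The genes htz-1, hcp-3, his-38, his-40, his-35, his-41, his-39, his-42, his-73, his-47, his-48, his-57, his-58 and the copies of printed stretches were named after their values were seen.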

Additional observations from a re-analysis of the deposited data

How the results depend on the processing

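No result rests on a test. No paired analysis was possible because there is 1 group. Beside 18 his genes, 12 peaks, a background of 2.45% and a median signal of 98.9, the lists of single replicates gave 9 to 17 genes, 5 to 9 peaks, 1.21 to 1.53% and medians of 50.01 to 64.97, replicate 2 alone giving the lowest of each. The second pooled list moved the median signal to 84.5. Only peaks at or above the list's median signal left 7 genes, 4 peaks and 1.28%. Only peaks overlapping a replicate list moved the background to 1.58%, with 15 his genes. A window ending at the start gave 11 genes beside a background of 2.16%, and assignment to the nearest start only gave 11 beside 1.98%. Members with windows at least 90% unique, an alternative chosen after seeing the data, gave 8 genes and 6 peaks. These were 8 of 18 such members (44.4%), beside 2.41% of all protein-coding genes with such windows. Summits within 200 bp of each other in place of overlap, also chosen after seeing the data, left 2 histone peaks in both replicates in place of 3. The remaining alternatives gave 16 to 21 genes beside backgrounds of 1.82 to 3.28%, and the second pooled list shared 15 genes with the main list. Unknown depth and copied sequence limit what the lists can show.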
